A study of Mus musculus with 36 samples.

Results

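Translation initiation and elongation factors are the proteins that bring ribosomes to an mRNA, find its start codon and move the ribosome along it. Their transcripts were followed in 18 mouse hearts in which an active form of the kinase Akt1 was switched on and off. Members were all genes whose single symbol in the platform annotation of the Affymetrix chips 430A and 430B starts with Eif1 to Eif6, Eef1 or Eef2, leaving out the sex-linked pair Eif2s3x and Eif2s3y. A mean signal over the 18 arrays of a chip of at least 20% of that chip's trimmed mean was required. This gave 54 genes of 14650 measured, from 56 symbols of the family. The symbols below the limit were Eef2kmt, at 6.66% of the trimmed mean, and Eif4a3, at 12.7%, and the lowest members were Eif2ak3 at 48.6%, Eif1a at 55.9% and Eif2ak4 at 81.4%. The members had 130 kept probe sets, and 34 members had more than 1. Each is described by its brightest kept probe set, on chip 430A where it has one there, which was the case for 47 members. Eif1, Eif2s1, Eif3g, Eif4g1 and Eef1g were not matched to a probe set under a single symbol and are not analysed here.

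All hearts came from mice labelled Tet-myrAkt1/αMHC-tTA, which carry a tetracycline-controlled myristoylated Akt1 transgene together with a transactivator driven by the alpha-myosin heavy chain promoter, a promoter of heart muscle cells. The hearts before induction thus carry both transgenes as well. The 5 groups were sampled in a row. Before induction, 4 hearts were taken from mice aged 12 weeks. Induction for 2 weeks (2 weeks on) gave 4 hearts from mice aged 14 weeks, and 4 more came from mice aged 14 weeks and 2 days, in which 2 days of repression had followed those 2 weeks (2 days off). Induction for 6 weeks (6 weeks on) gave 3 hearts at age 18 weeks, and 2 weeks of repression after that (2 weeks off) gave 3 at age 20 weeks. All mice were labelled male, each heart was 1 mouse, and RNA of whole heart tissue was used. The groups also differ in age, which cannot be told apart from the effect of the transgene. In tissue RNA, fewer cells of a type and less RNA per cell cannot be told apart either.

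In the cell, the cap of an mRNA is bound by eIF4E, which joins the scaffold eIF4G and the helicase eIF4A, helped by eIF4B and eIF4H. The complex eIF3 bridges this assembly to the small ribosomal subunit, on which eIF1, eIF1A and eIF5 control the choice of the start codon, and eIF2 delivers the initiator tRNA. The exchange factor eIF2B recharges eIF2 with GTP and is blocked when eIF2 kinases phosphorylate eIF2. Elongation needs eEF1A, which brings aminoacyl-tRNA, the eEF1B subunits, which recharge eEF1A, and eEF2, which moves the ribosome by a codon. Akt acts on this machinery mainly through the kinase mTORC1, which phosphorylates and releases the eIF4E-binding proteins and restrains eEF2 kinase, so that much of the control lies in protein phosphorylation, which these arrays do not measure. Protein synthesis of heart muscle cells rises when the heart grows, and transcript levels of the factors were compared here at each stage.

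Akt1 signal at 1 of its probe sets was 508 to 652 before induction, 1981 to 3481 at 2 weeks on and 1851 to 2931 at 6 weeks on, and it was 696 to 745 at 2 days off and 633 to 837 at 2 weeks off. All 8 heart muscle markers were measured, their summed signal ran from 135837 to 274117 between hearts, and the dimmest averaged 14771, so the label of heart tissue was borne out. Hearts 3 and 4 before induction, labelled male, had Xist signals of 5413 and 3271 against 136 to 289 in the other 16 hearts. The main counts over all members against the group before induction are given with and without them. Counts by role or by gene list are given only with them. The Actb 3′ to 5′ signal ratio, a measure of RNA integrity, was 3.71 in heart 3 at 6 weeks on against at most 1.92 in any other heart on chip 430A. It was lower in the repressed hearts than in the induced hearts without overlap, at 1.04 to 1.18 at 2 days off against 1.26 to 1.92 at 2 weeks on, and at 0.952 to 1.22 at 2 weeks off against 1.24 to 3.71 at 6 weeks on. Summed signals of 6 macrophage and leukocyte markers had medians of 5134 before induction, 5116 and 7028 at 2 weeks on and 2 days off, and 5312 and 8076 at 6 weeks on and 2 weeks off. The 5 endothelial markers summed to 3716 to 5009 at 6 weeks on against 5350 to 6404 before induction and 5826 to 6759 at 2 weeks off, and the 6 fibroblast markers had medians of 29371 before induction and 36160 to 38932 in the later groups. The fibroblast sums before induction reached 33573 and overlapped those at 2 weeks on, 2 days off and 6 weeks on, whose lowest were 32322, 32465 and 32977. The 4 atrial markers ran from 1805 to 66544 within the group before induction alone. The part of cell makeup and atrial tissue in the results was not tested. The number of arrays limits the precision.

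By their brightest probe sets, the share of factors called after 2 weeks of Akt1 induction was near that of all genes, and 25 of 54 changes were positive. A member was called when the limma test on log2(signal + 10% of the trimmed mean) gave an adjusted p under 0.05, Benjamini-Hochberg adjusted over all probe sets kept on its chip, and log2 changes below are on that scale. At 2 weeks on, 3 of 54 members (5.56%) were called against hearts before induction, 0 higher and 3 lower, where 6.59% of all genes were called, 3.69% higher and 2.9% lower. At 6 weeks on, 14 members (25.9%) were called, 4 higher and 10 lower, against 15.7% of all genes, 7.58% higher and 8.14% lower. Between the induced groups, 4 members differed, 2 higher and 2 lower at 6 weeks, against 5.17% of all genes, 2.35% higher and 2.82% lower. The median log2 change of the members was -0.05 at 2 weeks on and -0.07 at 6 weeks on, beside -0.02 and -0.05 over all genes, and with arrays scaled to a common median it was 0.04 and 0.14 beside 0.06 and 0.12.

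Members were called in both directions when Akt1 was switched off. After 2 days off, 12 members (22.2%) differed from 2 weeks on, 4 higher and 8 lower, where 10.6% of all genes did, 5.23% higher and 5.36% lower. After 2 weeks off, 13 members (24.1%) differed from 6 weeks on, 7 higher and 6 lower, where 12.7% of all genes did, 7.19% higher and 5.53% lower. Against hearts before induction, 4 members were called at 2 days off, 1 higher and 3 lower (3.81% of all genes, 2% higher and 1.81% lower), and 3 at 2 weeks off, 0 higher and 3 lower (2.71% of all genes, 1.5% higher and 1.21% lower). These comparisons share groups of hearts, so their values are set side by side and are not independent. By their brightest probe sets, 27 members were called in at least 1 of the 7 comparisons and 27 in none. Without the Xist hearts the counts against the group before induction were 0 at 2 weeks on, 3 at 2 days off, 6 at 6 weeks on (1 higher, 5 lower) and 1 at 2 weeks off, with 2.14%, 1.86%, 8.27% and 0.949% of all genes called. With arrays scaled to a common median, the median change of all genes at 6 weeks on moved by 0.16, and the counts became 0 at 2 weeks on, 8 at 6 weeks on (6 higher, 2 lower), 13 at 2 days off against 2 weeks on (2 higher, 11 lower) and 9 at 2 weeks off against 6 weeks on (2 higher, 7 lower). The direction of the split at 6 weeks on thus turned with the scaling. Without heart 3 at 6 weeks on, 9 members were called at 6 weeks on, 4 higher and 5 lower, and 7 at 2 weeks off against 6 weeks on.

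**Figure D1:**
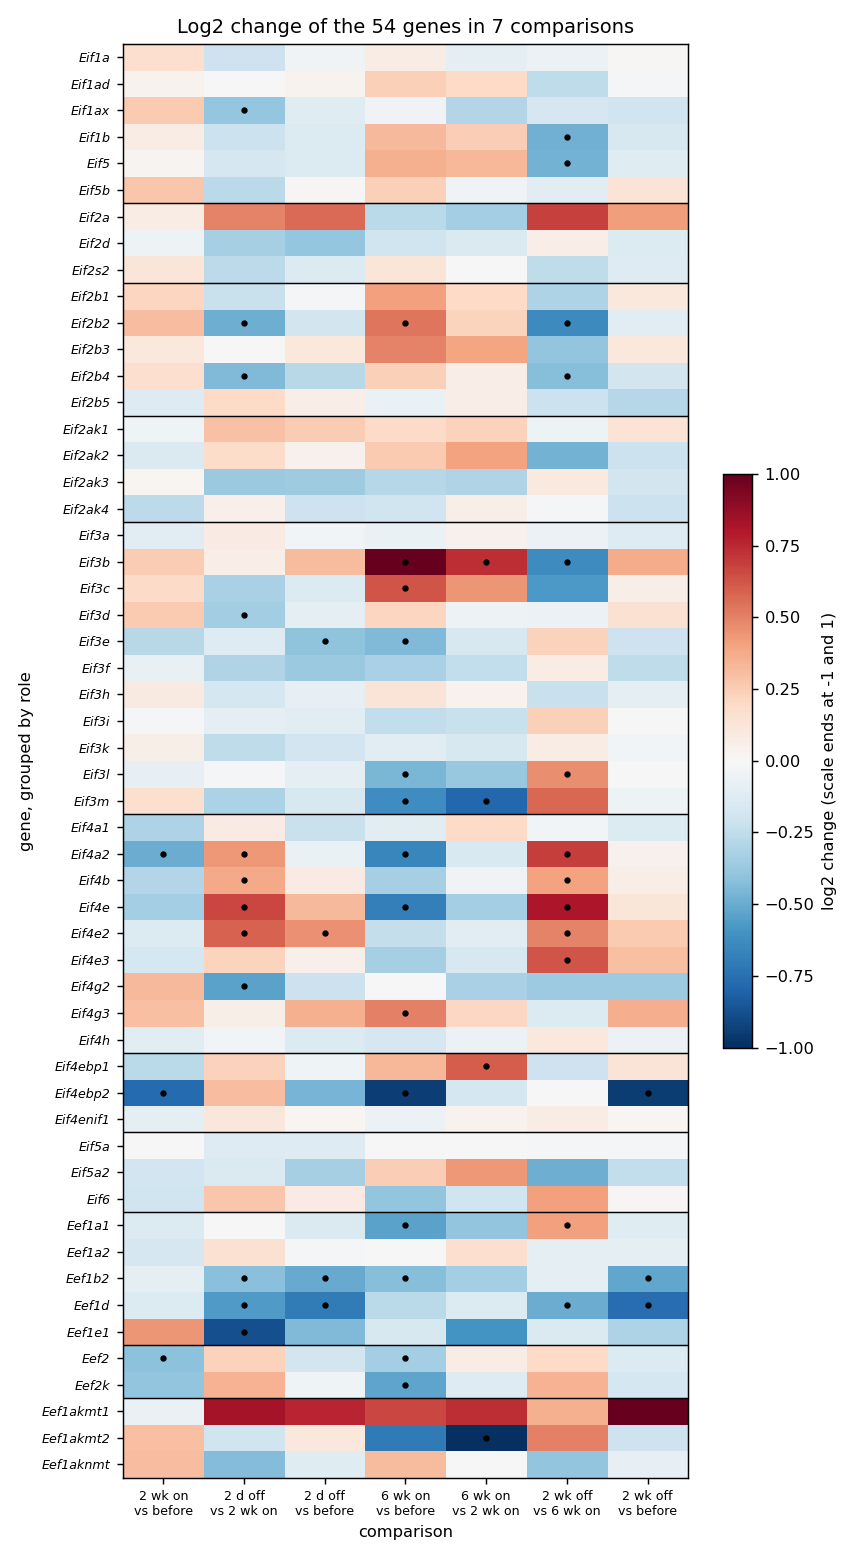
Log2 changes of the 54 members (rows, grouped by role and separated by lines) in 7 comparisons (columns), with red for higher and blue for lower in the first-named group, colours ending at -1 and 1, and a black dot where the adjusted p was under 0.05. Dots are sparse at 2 weeks on, where 3 members were called, and most frequent at 6 weeks on and in both comparisons of repressed with induced hearts, where 14, 12 and 13 were called.

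Promoters of the members were searched for a pair of motifs that are known from genes of the translation machinery, the E-box CACGTG bound by Myc and USF proteins and the motif CCGGAAGT bound by ETS proteins. RefSeq windows of GRCm38.p6, from 250 bases before to 50 after a start, were found for 43 of the 54 members, 58 windows in all. CACGTG, which reads the same on both strands, lay in 14 of the 58 windows (24.1%) and in 7.15% of 32851 windows of all genes. CCGGAAGT, on either strand, lay in 11 (19.0%) and in 3.89% of all. Counted by gene, 12 of the 43 matched members held CACGTG and 9 held CCGGAAGT. Of the 22 matched members called in some comparison, 4 held CACGTG and 6 held CCGGAAGT. The 4 with CACGTG were Eif4e, Eef2, Eef2k and Eif1b, whose results are given further on. They are shown with bases before the start only and CACGTG in capitals. Windows hold a match or not, and nothing was measured on binding.
Eif4e, chr3:138527018-138527267, plus strand: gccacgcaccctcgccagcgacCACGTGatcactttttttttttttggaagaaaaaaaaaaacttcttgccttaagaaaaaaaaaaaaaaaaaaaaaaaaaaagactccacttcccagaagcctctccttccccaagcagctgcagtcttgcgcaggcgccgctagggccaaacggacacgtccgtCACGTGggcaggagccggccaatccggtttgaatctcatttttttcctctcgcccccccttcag
Eef2, chr10:81176531-81176630, plus strand: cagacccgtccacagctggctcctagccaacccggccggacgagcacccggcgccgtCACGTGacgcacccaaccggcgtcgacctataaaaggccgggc
Eef2k, chr7:120842731-120842830, plus strand: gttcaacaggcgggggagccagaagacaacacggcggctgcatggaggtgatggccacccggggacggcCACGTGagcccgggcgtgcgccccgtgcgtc
Eif1b, chr9:120492506-120492605, plus strand: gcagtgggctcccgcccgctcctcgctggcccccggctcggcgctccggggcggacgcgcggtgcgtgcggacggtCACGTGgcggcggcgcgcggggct

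The first base of the motif lay 228 and 64 bases before the start of Eif4e, 43 before that of Eef2, 31 before that of Eef2k and 24 before that of Eif1b. For CCGGAAGT a pair of eIF3 subunit genes is shown in the same way, Eif3d and Eif3l, on which the motif lies on the other strand and so reads ACTTCCGG, in capitals, 71 and 36 bases before the start.
Eif3d, chr15:77970825-77970924, minus strand: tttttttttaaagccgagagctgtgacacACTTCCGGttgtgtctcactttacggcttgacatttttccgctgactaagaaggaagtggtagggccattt
Eif3l, chr15:79075123-79075222, plus strand: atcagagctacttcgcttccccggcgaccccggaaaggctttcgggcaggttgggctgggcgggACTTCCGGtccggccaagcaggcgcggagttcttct

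Among the 9 genes of the cap-binding complex, the cap-binding protein Eif4e, the helicase Eif4a2 and its helper Eif4b rose in both comparisons of repressed with induced hearts, and Eif4e and Eif4a2 had fallen at 6 weeks on. Of the 9, 1 fell and 0 rose at 2 weeks on, 2 fell and 1 rose at 6 weeks on, 4 rose and 1 fell at 2 days off against 2 weeks on, and 5 rose and 0 fell at 2 weeks off against 6 weeks on. The median changes of the 9 in these comparisons were -0.17, -0.24, 0.22 and 0.40. At 2 days off against hearts before induction 1 was called, and at 2 weeks off 0. The shares of all genes that rose and fell were 3.69% and 2.9% at 2 weeks on and 7.58% and 8.14% at 6 weeks on. They were 5.23% and 5.36% at 2 days off against 2 weeks on and 7.19% and 5.53% at 2 weeks off against 6 weeks on. Against hearts before induction they were 2% and 1.81% at 2 days off and 1.5% and 1.21% at 2 weeks off. With the Actb ratio, which separated repressed from induced hearts, as a covariate, 0 of the 54 members were higher at 2 weeks off against 6 weeks on and 3 were lower, so that all 5 rises of the complex lost their call there. With arrays scaled to a common median, Eif4b, Eif4e2 and Eif4e3 lost theirs in that comparison, and Eif4a2 and Eif4b at 2 days off.

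Eif4e, the cap-binding protein itself, had signals of 2188, 3071, 2548 and 3218 in the hearts before induction. At 2 weeks on they were 1776, 2190.5, 2392 and 2239, and at 2 days off 3610.5, 3181, 3132 and 3823. The hearts at 6 weeks on read 1994, 2004 and 1171, and at 2 weeks off 3158, 3313 and 2491. Every repressed heart thus lay above every induced heart of its series, and the lowest value was that of heart 3 at 6 weeks on. The change at 2 weeks on, -0.34 ± 0.16 (SE; adjusted p = 0.218), was not called, and the rise over the next 2 days was 0.67 ± 0.16 (SE; adjusted p = 0.00895), called under 30 of 30 alternative settings. At 6 weeks on Eif4e fell by 0.69 ± 0.18 (SE; adjusted p = 0.0104), a change of -0.44 without heart 3 at 6 weeks on (adjusted p = 0.0736) and of -0.62 (adjusted p = 0.0813) without both Xist hearts. It rose by 0.81 ± 0.19 (SE; adjusted p = 0.00640) after 2 weeks off, called under 28 of 30 settings and 0.46 (adjusted p = 0.117) with the Actb ratio as a covariate. Both repressed groups lay near the hearts before induction, at 0.32 and 0.12 (adjusted p = 0.272 and 0.779).

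Eif4a2, 1 of the helicases of the complex, had signals of 7081, 6702, 7066 and 7331 before induction and 4459.7, 5640.1, 4894 and 4972 at 2 weeks on. They were 6899, 6953, 6161 and 6907 at 2 days off. The later groups read 5257, 5338 and 3160.3 at 6 weeks on and 7032, 7552 and 7189 at 2 weeks off. All 7 induced hearts lay below all 11 others. Eif4a2 fell by 0.50 ± 0.13 at 2 weeks on (SE; adjusted p = 0.0232; 23 of 30 settings, -0.50 to -0.45 without hearts 3 or 4 before induction or hearts 1, 3 or 4 at 2 weeks on (adjusted p up to 0.0683)). It rose by 0.43 ± 0.13 within 2 days off (SE; adjusted p = 0.0288; 22 of 30 settings, 0.38 to 0.43 without hearts 1, 3 or 4 at 2 weeks on or hearts 1, 2 or 4 at 2 days off (adjusted p up to 0.0824)). At 6 weeks on it fell by 0.65 (adjusted p = 0.00341), called under 30 of 30 settings, and after 2 weeks off it rose by 0.70 (adjusted p = 0.00401; 28 of 30 settings). With the Actb covariate the rises were 0.25 (adjusted p = 0.0794) and 0.37 (adjusted p = 0.0577). With a common median the change at 2 weeks on was -0.40 (adjusted p = 0.101) and the rise at 2 days off 0.31 (adjusted p = 0.149). Without both Xist hearts the change of Eif4a2 at 2 weeks on was -0.47 (adjusted p = 0.176). Its paralogue Eif4a1 was not called by its brightest probe set, with changes of -0.31, 0.08, -0.11 and -0.03 in the same order.

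Eif4b, which stimulates the helicase, read 2063, 1568, 1841 and 1821 before induction, 1548, 1377, 1521 and 1433 at 2 weeks on and 2136, 1895, 1745 and 1921 at 2 days off. Hearts at 6 weeks on read 1404, 1614 and 1290.4, and at 2 weeks off 2262, 1693 and 1800.5. Induced hearts were below repressed hearts in both series. By this probe set the rises on repression were called, 0.38 ± 0.12 (SE; adjusted p = 0.0294) and 0.40 ± 0.13 (SE; adjusted p = 0.0419). The first was 0.33 to 0.39 without hearts 2, 3 or 4 at 2 weeks on or hearts 1, 2 or 4 at 2 days off (adjusted p up to 0.0941), and the second was 0.28 to 0.44 without any 1 of 9 hearts (adjusted p up to 0.184). With a common median they were 0.25 (adjusted p = 0.289) and 0.26 (adjusted p = 0.362). Eif4h, a relative of Eif4b, was not called by its brightest probe set, with changes between -0.17 and 0.11 in these comparisons.

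Eif4e2 and Eif4e3 encode further cap-binding proteins, of which eIF4E2 is known as a repressor of translation. Eif4e2 read 519.7, 641, 506 and 697 before induction, 486, 498, 531 and 608 at 2 weeks on, 789.6, 831, 823 and 845 at 2 days off, 576, 534 and 379.7 at 6 weeks on and 661, 760.0 and 718 at 2 weeks off. The 4 hearts at 2 days off were above all 14 others. The rise from 2 weeks on was 0.59 ± 0.13 (SE; adjusted p = 0.00490) and that from 6 weeks on 0.50 ± 0.15 (SE; adjusted p = 0.0276), the latter 0.33 to 0.49 without heart 3 at 6 weeks on or hearts 2 or 3 at 2 weeks off (adjusted p up to 0.150). Against hearts before induction the call at 2 days off, 0.46 ± 0.13 (SE; adjusted p = 0.0491), ended in 21 of 30 settings. With the mean over its probe sets, the rise from 2 weeks on became -0.054 (adjusted p = 0.740), that from 6 weeks on 0.08 (adjusted p = 0.676) and the difference from hearts before induction 0.12 (adjusted p = 0.492). With the Actb covariate the rise from 6 weeks on was 0.25 (adjusted p = 0.337). Eif4e3 rose by 0.63 ± 0.17 from 6 weeks on to 2 weeks off (SE; adjusted p = 0.0138; 0.42 without heart 3 at 6 weeks on (adjusted p = 0.0837) and 0.54 without heart 1 at 2 weeks off (adjusted p = 0.0563)). Its hearts read 1431, 1657 and 973 at 6 weeks on and 2363, 1785 and 2118 at 2 weeks off. Its other kept probe set changed by -0.31 in this comparison (adjusted p = 0.307) and fell by 0.83 at 2 days off against 2 weeks on. The mean over both probe sets gave 0.16 (adjusted p = 0.313) and the Actb covariate 0.36 (adjusted p = 0.201).

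The calls of the scaffold genes were opposite in sign to those of the complex's other genes in the same comparison. Eif4g2, which encodes a scaffold without an eIF4E-binding site, read 9700.2, 9082, 9051 and 8298 before induction, 13469, 10913, 10953 and 10051 at 2 weeks on and 8358, 7259.7, 8197 and 7356 at 2 days off. The hearts at 2 weeks on were the highest of these 3 groups and those at 2 days off nearly all the lowest. Eif4g2 fell by 0.53 ± 0.13 on 2 days of repression (SE; adjusted p = 0.00833; 29 of 30 settings), and the mean over its probe sets gave -0.18 (adjusted p = 0.183). At 6 weeks on its hearts spread from 6957 to 11632 and no change was called. Eif4g3, a scaffold that binds eIF4E, rose by 0.50 ± 0.13 at 6 weeks on (SE; adjusted p = 0.0124), from 1045, 716, 912 and 856 to 1229, 1233 and 1322, and was 0.52 (adjusted p = 0.0612) without both Xist hearts.

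**Figure D2:**
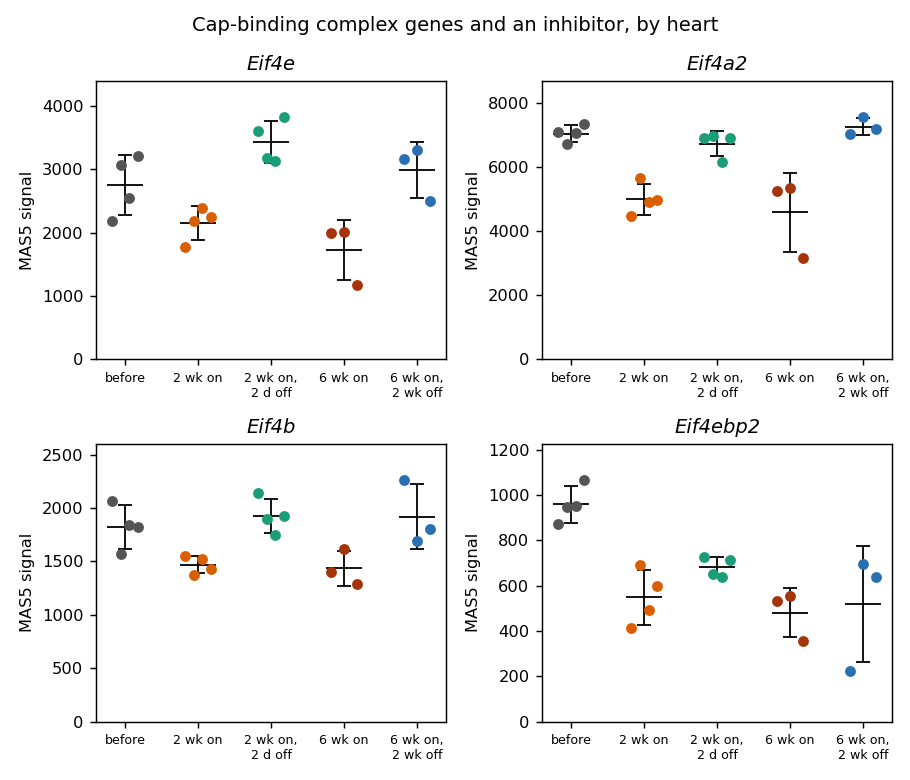
MAS5 signal (vertical axes, starting at 0) of Eif4e, Eif4a2, Eif4b and Eif4ebp2 in the 5 groups, with a point per heart and the mean ± SD per group in black. For Eif4a2 all hearts at 2 and 6 weeks on lie below all other hearts, and Eif4ebp2 is highest in the 4 hearts before induction.

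The eIF4E-binding proteins compete with eIF4G for eIF4E and are the best known mTORC1 targets of translation. Eif4ebp2 read 870.3, 948, 953 and 1066 before induction, 413, 690.5, 492 and 599.7 at 2 weeks on, 727, 650.2, 637 and 715 at 2 days off, 534, 555 and 356 at 6 weeks on and 226, 694 and 639.9 at 2 weeks off. Every later heart was below every heart before induction, and repression brought no called rise (0.31 and -0.01). The fall at 6 weeks on was -0.94 ± 0.25 (SE; adjusted p = 0.0126), -0.76 without heart 3 at 6 weeks on (adjusted p = 0.0707). The falls at 2 weeks on, -0.77 ± 0.23 (SE; adjusted p = 0.0463), and at 2 weeks off, -0.95 ± 0.25 (SE; adjusted p = 0.0427), were called under 11 and 13 of 30 settings, and without heart 1 at 2 weeks off the latter was -0.49 (adjusted p = 0.204). The mean over its probe sets gave -0.29 (adjusted p = 0.249) at 2 weeks on, -0.37 (adjusted p = 0.104) at 6 weeks on and -0.16 (adjusted p = 0.664) at 2 weeks off. Without both Xist hearts these falls were -0.70 (adjusted p = 0.269), -0.87 (adjusted p = 0.0905) and -0.88 (adjusted p = 0.189) by the brightest probe set. Its other 3 kept probe sets showed no called change at 2 or 6 weeks on, and 2 of them rose at 2 days off against 2 weeks on, by 0.51 and 0.79.

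Eif4ebp1, the member of this family best studied as an mTORC1 target, read 1763, 1651, 1673 and 1592 before induction, 1441, 1255, 1456 and 1349 at 2 weeks on, 1787, 1316, 1673 and 1728 at 2 days off, 1978, 1715 and 2797 at 6 weeks on and 2168, 1921 and 1478 at 2 weeks off. All hearts at 2 weeks on lay below all hearts before induction, with a change of -0.27 that was not called (adjusted p = 0.269). From 2 to 6 weeks on it rose by 0.61 ± 0.16 (SE; adjusted p = 0.0241), and this was 0.57 without heart 2 at 2 weeks on (adjusted p = 0.0687) and 0.41 without heart 3 at 6 weeks on (adjusted p = 0.107). A dimmer probe set of Eif4ebp1 moved further, from 1372 ± 198 before induction to 749.7 ± 131 at 2 weeks on (SD, n = 4 each), a change of -0.83 ± 0.12 (SE; adjusted p = 0.000363). It then rose to 1779 ± 45.4 at 2 days off (SD, n = 4), by 1.21 (adjusted p = 8.16e-06). The third probe set fell by 0.83 at 2 weeks on and by 0.58 at 6 weeks on. Eif4enif1, which shuttles eIF4E into the nucleus, changed by no more than 0.11 in either direction in the 7 comparisons and was not called.

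Some genes of eIF2B, the exchange factor, fell on repression. Of its 5 subunit genes, 2 fell and 0 rose at 2 days off against 2 weeks on and at 2 weeks off against 6 weeks on, 1 rose at 6 weeks on, and 0 were called at 2 weeks on. Over all genes, 5.36% fell at 2 days off and 5.53% at 2 weeks off in these comparisons, and 7.58% rose at 6 weeks on. Eif2b2, the beta subunit, read 1320.0, 1214, 1192 and 1258 before induction, 1658, 1521, 1536 and 1509 at 2 weeks on, 943, 1190.0, 1201 and 1055 at 2 days off, 1456, 1768 and 2362 at 6 weeks on and 1214, 1079 and 1172 at 2 weeks off. All induced hearts were above all other hearts. Eif2b2 rose by 0.53 ± 0.13 at 6 weeks on (SE; adjusted p = 0.00864; 0.35 without heart 3 at 6 weeks on (adjusted p = 0.0569); 0.51 (adjusted p = 0.0638) without both Xist hearts). It fell by 0.49 at 2 days off (adjusted p = 0.0106) and by 0.64 at 2 weeks off (adjusted p = 0.00466). Its other 2 kept probe sets were not called in any comparison, and the mean over its probe sets gave 0.01 (adjusted p = 0.985) at 2 days off, -0.06 (adjusted p = 0.743) at 2 weeks off and 0.14 (adjusted p = 0.354) at 6 weeks on. With the Actb ratio as a covariate the change at 2 weeks off was -0.42 (adjusted p = 0.0775).

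Eif2b4, the delta subunit, fell by 0.44 ± 0.13 at 2 days off (SE; adjusted p = 0.0199; -0.39 without heart 1 at 2 weeks on (adjusted p = 0.0629) and -0.40 without heart 1 at 2 days off (adjusted p = 0.0637)), from 1826, 1557, 1533 and 1657 to 1085, 1220.5, 1219 and 1259. At 2 weeks off it fell by 0.42 against 6 weeks on (adjusted p = 0.0470), a call that 20 of 30 settings ended, with a value of -0.23 (adjusted p = 0.400) with the Actb covariate. Eif2b5, the catalytic epsilon subunit, was not called, with changes of -0.13, 0.20, -0.07 and -0.21 at 2 weeks on, 2 days off, 6 weeks on and 2 weeks off. The genes of eIF2 and other carriers of initiator tRNA, Eif2s2, Eif2a and Eif2d, were not called by their brightest probe sets. By their brightest probe sets, 0 of the 4 eIF2 kinase genes were called in any of the 7 comparisons by limma (4 values of 2 genes at an unadjusted p under 0.05), and at 2 weeks off against 6 weeks on the interferon-induced Eif2ak2 changed by -0.48 (adjusted p = 0.0828) and the amino acid sensor Eif2ak4 by -0.01 (adjusted p = 0.987). A dimmer probe set of Eif2ak2 rose by 0.89 in that comparison, against the sign of the brightest, and 1 of Eif2ak1, the heme-regulated kinase, rose by 0.94 at 2 days off and 1.16 at 2 weeks off.

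By their brightest probe sets, start-site factors had calls on repression. Eif1ad and Eif5b, not among the start-site factors described above, were counted with them and had no call by their brightest probe sets. Of the 6 genes read in this way, 1 fell at 2 days off against 2 weeks on and 2 fell at 2 weeks off against 6 weeks on, and 0 rose in any of the 7 comparisons. Over all genes, 5.36% fell at 2 days off against 2 weeks on and 5.53% at 2 weeks off against 6 weeks on. Eif1ax, a gene of eIF1A, fell by 0.38 ± 0.11 at 2 days off (SE; adjusted p = 0.0204), from 1653, 1966, 1864 and 1790.0 to 1350.4, 1532, 1377 and 1266, with values of -0.38 to -0.35 without hearts 2 or 3 at 2 weeks on or hearts 1 or 4 at 2 days off (adjusted p up to 0.0645). The mean over its probe sets gave -0.04 (adjusted p = 0.868). Eif5, the GTPase-activating protein of eIF2, read 3112, 3206 and 2631 at 6 weeks on and 2059, 2272 and 2048 at 2 weeks off, a fall of 0.48 ± 0.14 (SE; adjusted p = 0.0199; -0.45 to -0.42 without hearts 1 or 2 at 6 weeks on or hearts 1 or 3 at 2 weeks off (adjusted p up to 0.0634)), with -0.25 (adjusted p = 0.112) for the mean over its probe sets. Eif1b, a close relative of Eif1, read 1821, 1486 and 1409.5 at 6 weeks on and 1105, 1032 and 1184 at 2 weeks off, a fall of 0.48 ± 0.12 (SE; adjusted p = 0.0105; -0.37 without heart 1 at 6 weeks on (adjusted p = 0.0516)). Of the dimmer probe sets, 1 of Eif1ax rose by 0.76 at 2 weeks off, 1 of Eif1ad rose by 0.76 at 6 weeks on, and 1 of Eif5b rose by 0.56 at 2 days off. For Eif5 and Eif1b the hearts at 6 weeks on were above those of every other group, and the rises over hearts before induction, 0.36 and 0.32, missed the threshold (adjusted p = 0.0511 and 0.0520).

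Subunit genes of eIF3 were called in both directions at 6 weeks on, when 2 of 11 rose and 3 fell. Of all genes, 7.58% rose and 8.14% fell in that comparison. Without both Xist hearts, Eif3c, Eif3l and Eif3m lost the call there, and Eif3b and Eif3e kept it. With a common median all 3 falls lost it. At 2 weeks on 0 of 11 were called. Eif3b showed the largest called rise of any member against hearts before induction. It read 1702, 1642, 1390.1 and 1621 before induction, 1720.5, 1537, 2262 and 2188 at 2 weeks on, 2345, 2215, 1929 and 1563 at 2 days off, 3457, 3147 and 3051 at 6 weeks on and 2613, 1797 and 1867 at 2 weeks off. The hearts at 6 weeks on were above all others. The rise was 1.00 ± 0.16 (SE; adjusted p = 0.000340) over hearts before induction, called under 30 of 30 settings, and 0.74 ± 0.16 (SE; adjusted p = 0.00997) over 2 weeks on, called under 29 of 30. At 2 weeks off Eif3b fell by 0.63 ± 0.17 (SE; adjusted p = 0.0165; -0.58 to -0.53 without heart 1 at 6 weeks on or hearts 2 or 3 at 2 weeks off (adjusted p up to 0.0774)). Only 1 probe set of Eif3b was kept. Eif3c, another subunit, rose by 0.63 at 6 weeks on (adjusted p = 0.0424) from 2569, 1732, 2009 and 1249.7 to 3026, 2408 and 3203, with overlapping hearts. That call ended under 17 of 30 settings, with 0.32 (adjusted p = 0.127) for the mean over its probe sets and 0.43 (adjusted p = 0.258) without both Xist hearts.

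Lower at 6 weeks on were Eif3m, Eif3l and Eif3e, further subunits of the complex. Eif3m read 1247, 1149, 1042 and 1205 before induction, 1057, 1583, 1381 and 1235 at 2 weeks on and 827, 1006 and 471 at 6 weeks on. It fell by 0.62 ± 0.19 against hearts before induction (SE; adjusted p = 0.0228; -0.61 without heart 4 before induction (adjusted p = 0.0504) and -0.33 without heart 3 at 6 weeks on (adjusted p = 0.158)) and by 0.78 against 2 weeks on (adjusted p = 0.0158; -0.69 without heart 2 at 2 weeks on (adjusted p = 0.0548) and -0.49 without heart 3 at 6 weeks on (adjusted p = 0.0657)). Eif3l read 1836, 1965, 1756 and 1986 before induction, 1573, 1604 and 989.7 at 6 weeks on and 2002, 1828 and 1838 at 2 weeks off. It fell by 0.46 (adjusted p = 0.0183; -0.24 without heart 3 at 6 weeks on (adjusted p = 0.110)) and rose by 0.46 on repression (adjusted p = 0.0270; 0.24 to 0.48 without heart 3 at 6 weeks on or hearts 1, 2 or 3 at 2 weeks off (adjusted p up to 0.142)). The mean over the probe sets of Eif3l gave -0.21 (adjusted p = 0.352) and 0.27 (adjusted p = 0.285). With the Actb covariate the rise of Eif3l was 0.19 (adjusted p = 0.374) and the fall of Eif3m at 6 weeks on -0.39 (adjusted p = 0.0523). Without both Xist hearts the falls at 6 weeks on were -0.47 (adjusted p = 0.0780) for Eif3l and -0.67 (adjusted p = 0.0776) for Eif3m. In both genes heart 3, the heart with the high Actb ratio, was the lowest at 6 weeks on.

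Eif3e read 4371, 3711, 3796 and 3454 before induction, 2905, 2836, 2932 and 2812 at 2 days off and 3014, 3085 and 2375 at 6 weeks on. It fell by 0.41 at 2 days off against hearts before induction (adjusted p = 0.0256; -0.42 to -0.34 without hearts 1, 2 or 3 before induction or hearts 1, 2 or 4 at 2 days off (adjusted p up to 0.0739)) and by 0.44 at 6 weeks on (adjusted p = 0.00874; -0.32 without heart 3 at 6 weeks on (adjusted p = 0.0504)), where the mean over its probe sets gave -0.11 (adjusted p = 0.591). Eif3d, a subunit that can itself bind the cap, fell by 0.35 at 2 days off against 2 weeks on (adjusted p = 0.0386; -0.37 to -0.30 without any 1 of 7 hearts (adjusted p up to 0.109)). Eif3a, the largest subunit, was not called by its brightest probe set, with changes of -0.11 at 2 weeks on and -0.06 at 6 weeks on, and a dimmer one fell by 1.22 at 6 weeks on. Scaled to a common median, the calls at 6 weeks on of Eif3e, Eif3l and Eif3m ended (-0.23 (adjusted p = 0.303), -0.26 (adjusted p = 0.243) and -0.43 (adjusted p = 0.141)). Without both Xist hearts the fall of Eif3e at 2 days off was -0.48 (adjusted p = 0.0530).

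**Figure D3:**
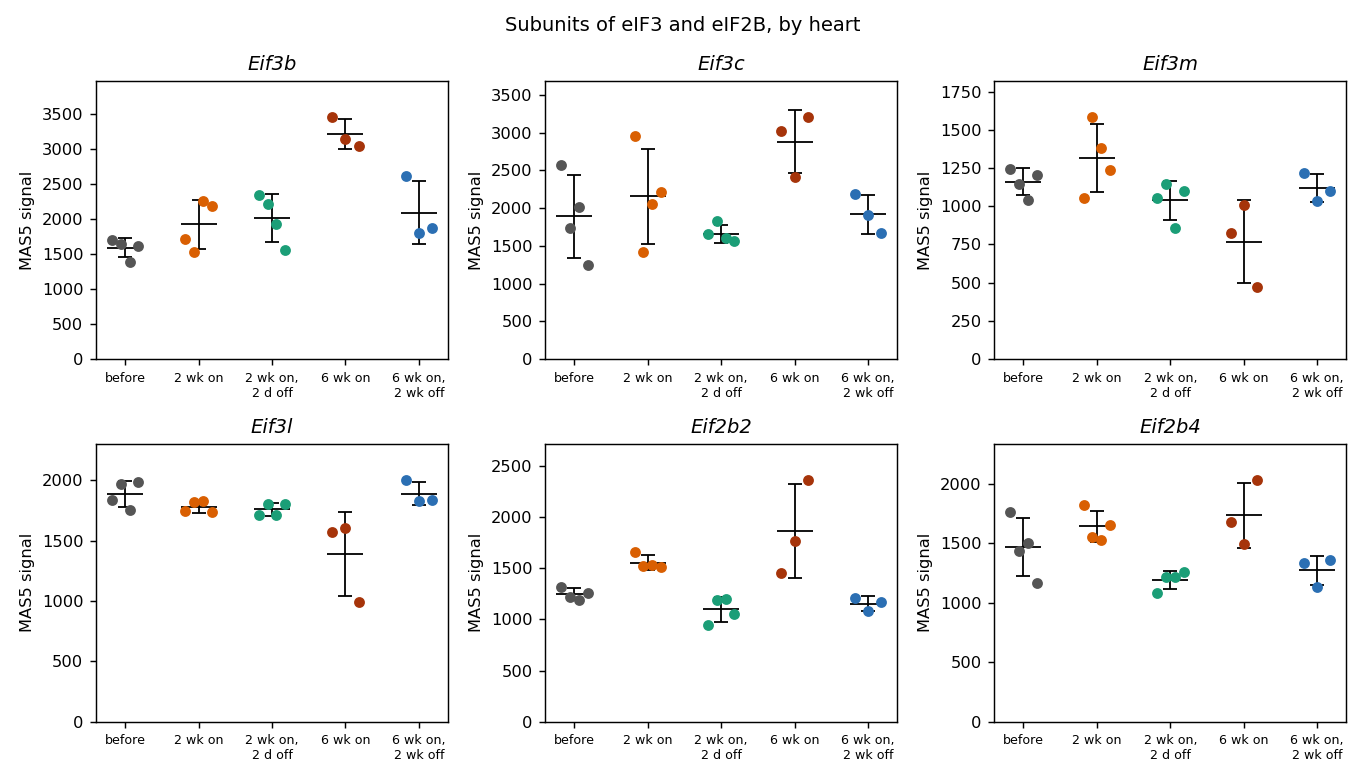
MAS5 signal (vertical axes, starting at 0) of 4 eIF3 and 2 eIF2B subunit genes in the 5 groups, with a point per heart and the mean ± SD per group in black. The 3 hearts at 6 weeks on are the highest for Eif3b, and for Eif3m and Eif3l the third of them is the lowest heart of all.

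Eif5a, the factor that helps ribosomes over difficult peptide bonds, was not called by its brightest probe set. It read 8781, 7631, 8065 and 9377 before induction, 9289, 8022, 8976 and 7591 at 2 weeks on and 7796, 7904 and 9781 at 6 weeks on, with changes of 0.000709 and 0.00166 (SE 0.11 and 0.12). Eif5a2 was not called either. Eif6, which keeps the large subunit from joining too early, changed by -0.40 at 6 weeks on (adjusted p = 0.0706) and by 0.41 at 2 weeks off (adjusted p = 0.0885), both short of the threshold. Dimmer probe sets were called for Eif5a, by -0.48 at 6 weeks on and 0.60 at 2 weeks off, and for Eif6, by -0.60 at 2 days off.

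Among the elongation factors, the genes of a pair of subunits that recharge eEF1A, Eef1d and Eef1b2, were lower in repressed hearts than in hearts before induction. The 5 genes Eef1a1, Eef1a2, Eef1b2, Eef1d and Eef1e1 were counted together, although Eef1e1 encodes a protein of the aminoacyl-tRNA synthetase complex. Of the 5, 3 fell and 0 rose at 2 days off against 2 weeks on, Eef1e1 among them. Against hearts before induction, 2 fell at 2 days off, 2 at 2 weeks off and 2 at 6 weeks on. The shares of all genes that fell were 5.36%, 1.81%, 1.21% and 8.14% in that order. Eef1d, the delta subunit, read 3971, 3232, 3329.9 and 2887 before induction, 3529, 2994, 2953 and 2709.7 at 2 weeks on, 1942, 2051, 2065 and 2086 at 2 days off, 2590.5, 2462 and 3298 at 6 weeks on and 2317, 1503 and 2101 at 2 weeks off. All 7 repressed hearts were below all 11 other hearts. Eef1d fell by 0.56 ± 0.14 at 2 days off against 2 weeks on (SE; adjusted p = 0.00802) and by 0.70 against hearts before induction (adjusted p = 0.00611), each called under 30 of 30 settings. At 2 weeks off it fell by 0.76 against hearts before induction (adjusted p = 0.00681; 29 of 30 settings) and by 0.50 against 6 weeks on (adjusted p = 0.0334; -0.37 without heart 3 at 6 weeks on (adjusted p = 0.151) and -0.32 without heart 2 at 2 weeks off (adjusted p = 0.194)). The latter was -0.29 (adjusted p = 0.318) with the Actb covariate. With a common median the change at 2 weeks off against hearts before induction was -0.71 (adjusted p = 0.0600). Of its other kept probe sets, 1 fell in the same 4 comparisons, by 0.80 to 1.02, and 1 was not called.

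Eef1b2, the beta subunit, read 2882, 2905, 2737 and 2725 before induction, 2516, 2759, 2792 and 2520.2 at 2 weeks on, 2165, 1992, 1823 and 1899.7 at 2 days off, 1806, 1969 and 2536 at 6 weeks on and 2032, 2058 and 1774 at 2 weeks off. All repressed hearts were below all hearts before induction and at 2 weeks on. It fell by 0.42 ± 0.11 at 2 days off against 2 weeks on (SE; adjusted p = 0.0110) and by 0.50 against hearts before induction (adjusted p = 0.0100), called under 30 of 30 settings each. At 6 weeks on it fell by 0.42 (adjusted p = 0.0136; -0.32 without heart 1 at 6 weeks on (adjusted p = 0.0764)) and at 2 weeks off it was -0.52 against hearts before induction (adjusted p = 0.0172; -0.45 without heart 3 at 2 weeks off (adjusted p = 0.0891)). With a common median the fall at 6 weeks on was -0.22 (adjusted p = 0.313) and that at 2 weeks off against hearts before induction -0.46 (adjusted p = 0.107). Without both Xist hearts these were -0.47 (adjusted p = 0.0504) and -0.56 (adjusted p = 0.0707). Eef1e1, an accessory protein of the aminoacyl-tRNA synthetase complex, read 578, 998, 788 and 699 at 2 weeks on and 379, 422, 316 and 435 at 2 days off, a fall of 0.88 ± 0.18 (SE; adjusted p = 0.00331) that held under 30 of 30 settings.

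Eef1a1 encodes the broadly expressed eEF1A and Eef1a2 the form of muscle and nerve. Eef1a1 read 15545, 16003, 15099.7 and 17867 before induction, 16801, 14703, 14374 and 12837 at 2 weeks on, 13767, 15367, 16609 and 12844 at 2 days off, 11507, 11959.9 and 9951 at 6 weeks on and 14588, 16363 and 13546 at 2 weeks off. The 3 hearts at 6 weeks on were the lowest of all. It fell by 0.53 ± 0.12 at 6 weeks on (SE; adjusted p = 0.00421; 29 of 30 settings) and rose by 0.41 at 2 weeks off (adjusted p = 0.0311; 0.33 to 0.42 without heart 3 at 6 weeks on or hearts 1 or 2 at 2 weeks off (adjusted p up to 0.132)). With a common median these were -0.33 (adjusted p = 0.0987) and 0.26 (adjusted p = 0.228). Eef1a2 was called in no comparison, and its hearts overlapped between 22119, 17432, 17910.0 and 18867 before induction and 19765, 15124 and 22664 at 6 weeks on, a change of -0.01 ± 0.15 (SE; adjusted p = 0.982). The difference between the paralogues was not tested.

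Eef2, the translocation factor, was 1 of the 3 members called at 2 weeks on. It read 12790.3, 10271, 11069.9 and 11546 before induction, 9294, 7889, 8445 and 8566 at 2 weeks on, 9696, 9931, 10974 and 9504 at 2 days off, 9596, 8589.6 and 8868 at 6 weeks on and 10746, 9109.9 and 11307 at 2 weeks off. All 7 induced hearts were below all 4 hearts before induction. Eef2 fell by 0.41 ± 0.10 at 2 weeks on (SE; adjusted p = 0.0133), -0.42 (adjusted p = 0.101) without both Xist hearts, and by 0.34 at 6 weeks on (adjusted p = 0.0317; -0.35 to -0.28 without hearts 1, 3 or 4 before induction or hearts 2 or 3 at 6 weeks on (adjusted p up to 0.0935)). Eef2k, the kinase that inhibits eEF2, read 376, 529, 430.1 and 332 before induction and 329, 262 and 228 at 6 weeks on, a fall of 0.53 ± 0.16 (SE; adjusted p = 0.0260; -0.51 to -0.42 without hearts 2 or 3 before induction or hearts 2 or 3 at 6 weeks on (adjusted p up to 0.116)). With a common median the changes at 6 weeks on were -0.13 (adjusted p = 0.598) for Eef2 and -0.35 (adjusted p = 0.151) for Eef2k. That of Eef2 at 2 weeks on was -0.31 (adjusted p = 0.194) with a common median. Without both Xist hearts the change of Eef2 at 6 weeks on was -0.35 (adjusted p = 0.119). Of the enzymes that methylate eEF1A, Eef1akmt2 fell by 1.01 from 2 to 6 weeks on (adjusted p = 0.0383; -1.05 to -0.71 without any 1 of 7 hearts (adjusted p up to 0.196)), from 165, 251, 260.3 and 281 to 69, 117 and 165 on chip 430B.

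**Figure D4:**
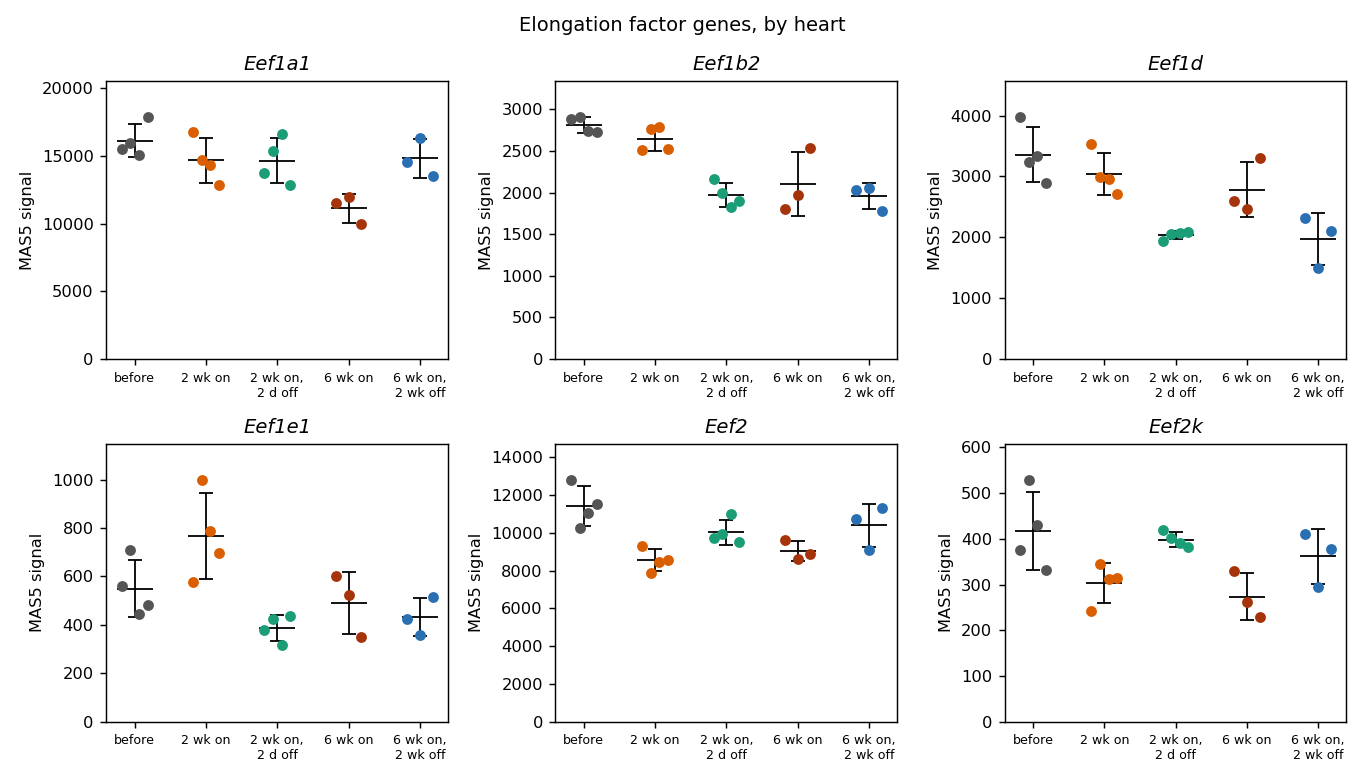
MAS5 signal (vertical axes, starting at 0) of 6 genes with Eef1 or Eef2 symbols in the 5 groups, with a point per heart and the mean ± SD per group in black. Eef1d is lower in all 7 repressed hearts than in the 11 others, and Eef1a1 is lowest in the 3 hearts at 6 weeks on.

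More than 1 probe set was kept for 34 members. When a member was counted as called with any of its kept probe sets, the counts rose to 9 at 2 weeks on, 24 at 2 days off against 2 weeks on, 26 at 6 weeks on and 21 at 2 weeks off against 6 weeks on, where 8.83%, 16.0%, 22.0% and 18.7% of all genes were called by the same count. Called probe sets of opposite sign within a gene and comparison occurred in Eif4e2 alone. A dimmer probe set, at 161 ± 38.3 before induction and 349 ± 30.1 at 2 weeks on (SD, n = 4 each), rose by 0.93 at 2 weeks on and changed by -1.09 at 2 days off and -1.14 at 2 weeks off, while the brightest rose on repression. For Eif4e a second probe set gave changes of -0.46, 0.59, -0.72 and 0.85 at 2 weeks on, 2 days off, 6 weeks on and 2 weeks off, all called. For Eif4b a second gave -0.63, 0.87, -0.92 and 1.10, all called and larger than those of its brightest.

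Some genes that the brightest probe set left uncalled had calls in others. Eif2s2, the beta subunit of eIF2, went from 1402 ± 422 before induction to 2278 ± 381 at 2 weeks on and 1182 ± 271 at 2 days off in 1 dimmer probe set (SD, n = 4 each), and from 2191 ± 304 at 6 weeks on to 783 ± 188 at 2 weeks off (SD, n = 3 each). The changes there were 0.71, -0.93, 0.66 and -1.44, all called. Eif4a1 changed by 0.53 at 2 weeks on and -0.84 at 2 days off in a dimmer probe set, both called and opposite in sign to its brightest. For Eif5, 1 probe set lies on both chips, and its change at 6 weeks on was 0.36 on chip 430A, not called, and 0.73 on chip 430B, called. Which transcript ends these probe sets read was not analysed here.

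**Figure D5:**
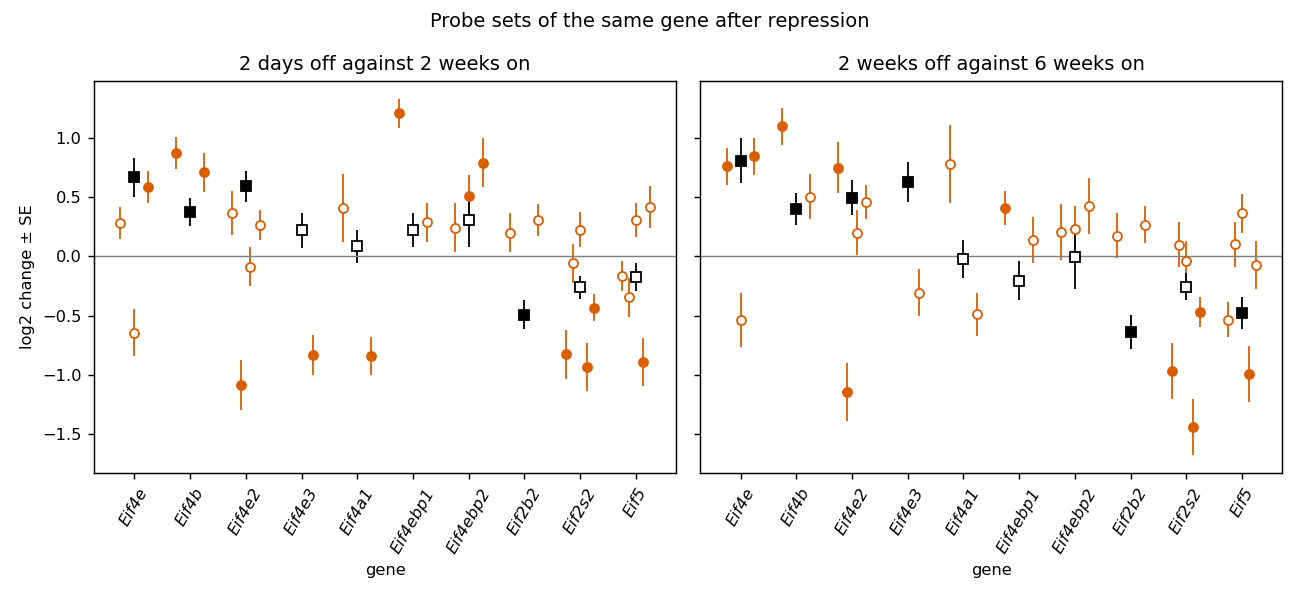
Log2 change ± SE of each kept probe set of 10 members, on 2 days of repression against 2 weeks on (left) and on 2 weeks of repression against 6 weeks on (right), with a black square for the brightest probe set, an orange circle for each other one, and filled symbols where called. Filled symbols lie on both sides of 0 for Eif4e2, and filled circles of Eif2s2 lie below 0 in both panels.

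Early and late repression were compared directly. The difference between the response to 2 weeks off after 6 weeks on and that to 2 days off after 2 weeks on was called for 0 of 54 members by limma (10 at an unadjusted p under 0.05, smallest adjusted p = 0.118), where 0.642% of all genes were called. With the Actb ratio as a covariate 1 member was called, and without heart 2 at 6 weeks on 1 was. The durations of both steps differ between these responses, so they are not matched in time.

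Further genes of the pathway were listed by function, 77 of them measured. Of these, 4 rose and 5 fell at 2 weeks on, 11 rose and 8 fell at 6 weeks on, 11 rose and 7 fell at 2 days off against 2 weeks on, and 11 rose and 6 fell at 2 weeks off against 6 weeks on. In the same order, 3.69% of all genes rose and 2.9% fell, 7.58% and 8.14%, 5.23% and 5.36%, and 7.19% and 5.53%. Calls among the 24 measured genes of mTORC1 and its regulators were 3 higher and 4 lower at 2 weeks on and 9 higher and 2 lower at 6 weeks on, where 6.59% and 15.7% of all genes were called, and the list's median changes were 0.0034 and 0.20. Ddit4, an inhibitor of mTORC1 induced by stress, rose by 0.90 at 2 weeks on and 2.90 at 6 weeks on and changed by -1.14 and -3.69 on repression. Tsc2, of the complex that restrains mTORC1, went the other way, with -0.80, -1.05, 0.93 and 1.29 in the same order. Rragd, a Rag GTPase that recruits mTORC1 to lysosomes, changed by -0.91 at 2 weeks on and 1.64 at 2 days off.

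For the lists that follow, the shares of all genes that rose and fell were 3.69% and 2.9% at 2 weeks on and 7.58% and 8.14% at 6 weeks on. Of the 13 measured S6 kinase and cap-binding regulators, 0 were called at 2 weeks on and 1 fell at 6 weeks on, Pabpc4, a poly(A)-binding protein, by 0.62, which then rose by 0.82 at 2 weeks off. Mknk2, a kinase of eIF4E, rose by 0.52 at 2 days off. Among 11 termination and recycling genes 3 fell and 0 rose at 6 weeks on. The release factor gene Etf1 fell by 0.85 ± 0.20 there (SE; adjusted p = 0.00501) and rose by 0.94 at 2 weeks off. Its signal was 1629 ± 60.7 before induction (SD, n = 4) and spread widely at 6 weeks on, at 946 ± 393 (SD, n = 3). Of 12 genes of the integrated stress response, 0 were called at 2 weeks on and 2 rose at 6 weeks on, among them the transcription factor gene Atf5 at 0.84. Genes for hypusine and diphthamide, the modifications of eIF5A and eEF2, had 0 calls of 8 at 2 weeks on and 1 lower at 6 weeks on, and mitochondrial translation factors had 1 higher and 1 lower of 9, then 0 and 1.

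The 27 members that were called in no comparison by their brightest probe sets had changes between -0.49 and 1.02 over the 7 comparisons. The upper end was Eef1akmt1, a methyltransferase of eEF1A, at 2 weeks off against hearts before induction, with hearts of 276, 318, 472 and 548 and 811, 742 and 1001 (adjusted p = 0.168). Eif2a, an alternative carrier of initiator tRNA on chip 430B, was higher in every heart at 2 weeks off than at 6 weeks on, at 503, 361 and 357 against 287, 216 and 239, with a change of 0.68 ± 0.26 (SE; adjusted p = 0.169) that was not called.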

How the data were processed

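Signals of 22690 probe sets on 430A and 22575 on 430B arrays were measured in 18 hearts. Per the submitters' processing notes, the authors made the intensity values with MAS5. To each deposited intensity, 10% of the chip's mean trimmed by 2% was added (50.02 on 430A and 12.25 on 430B) before log2. Probe sets under 20% of that mean were left out. The 15565 and 17519 kept were fitted per chip with limma 3.58.1 in R 4.3.3 (5 group means, trended eBayes, Benjamini-Hochberg), after a test on simulated data. A gene was read from its brightest kept probe set, 430A first. P-values measure the spread between individual mice. Members, gene lists and named genes were chosen with earlier results of these data known. The rule named up to 12 called members per comparison by adjusted p, main members of each role, members with opposite calls and up to 4 called genes of each pathway list. Further members (the remaining called ones at 6 weeks on and 2 weeks off, uncalled ones and those singled out by another probe set) were named after their values were seen. Replicate numbers did not pair hearts: of 33 pairs with the same number, 5 correlated above 0.1 (median -0.018). Promoter windows came from RefSeq.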

Additional observations from a re-analysis of the deposited data

Results flagged for a closer look

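Heart 3 at 2 days off lay apart from the other 3 hearts of its group in Eif4a2, with a signal of 6161 and a gap to the nearest heart of 0.932 of the group's range. Of 81 groups of 4 hearts examined, 1 held a heart past the limit used, which chance passes in about 1 group in 20.

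The effect of induction differed between 6 and 2 weeks for 4 members, by limma's test of the 6-week hearts against the 2-week hearts, which share the group before induction. The difference, 6 weeks minus 2 weeks, was -1.01 for Eef1akmt2, 0.74 for Eif3b, -0.78 for Eif3m and 0.61 for Eif4ebp1. Age rose with induction, and they cannot be told apart.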

How the results depend on the processing

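Of 53 called values of members, 8 kept direction and call under all 30 alternative settings, and 45 lost the call under at least 1. With only the compared groups in the fit 28 were lost, with a common median 24, with the Actb ratio as a covariate 20, without both Xist hearts 18, with the mean over probe sets 15, with eBayes without a trend 10, without a filter 7, with quantile scaling 3, with a 5% offset 2, and with a 20% offset or a 50% filter 0. The mean over probe sets reversed Eif2b2 (0.0051) and Eif4e2 (-0.054) at 2 days off against 2 weeks on, where their probe sets disagree. Members called at 2 weeks on, 2 days off against before induction, 6 weeks on, 6 against 2 weeks on and 2 weeks off against before induction were 0, 2, 8, 2 and 1 with a common median. Without both Xist hearts 0 were called at 2 weeks on, 6 at 6 weeks on and 1 at 2 weeks off against before induction. With only the compared groups, 4 were called at 6 weeks on, 0 between 6 and 2 weeks on and 0 at 2 weeks off against 6 weeks on, with fewer hearts in each fit. With the Actb covariate, 3 were called at 2 weeks off against 6 weeks on and 1 in the difference between responses. Counting any probe set gave 9, 24, 26 and 21 at 2 weeks on, 2 days off against 2 weeks on, 6 weeks on and 2 weeks off against 6 weeks on. The cause of these shifts was not tested. Leaving out 1 heart gave 1 to 5 at 2 weeks on, 7 to 14 at 2 days off against 2 weeks on, 2 to 5 against before induction, 9 to 17 at 6 weeks on, 1 to 5 between 6 and 2 weeks on, 7 to 15 at 2 weeks off against 6 weeks on, 2 to 4 against before induction and 0 to 1 for the difference between responses. With the replicate number as a block, 4 calls were lost and the counts were 3, 11, 4, 15, 3, 13, 2 and 0 in that order of comparisons. With a common median the share of higher calls over all genes was 77.0% at 6 weeks on against 48.2%, and 36.6% at 2 weeks off against 6 weeks on against 56.5%. The number of arrays is 1 limit on what could be detected.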
